A study of Mus musculus with 3 samples.

Results

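The receptors and ligands of the haematopoietic growth factors were examined in RNA sequencing libraries of group 2 innate lymphoid cells (ILC2s), lymphocytes that carry no rearranged antigen receptor and make type 2 cytokines. The set held 10 genes, chosen by name from the 27179 Entrez gene IDs of the deposited table, and all 10 had a row. The receptors were Kit, Flt3, Csf1r, Csf2ra, Csf2rb, Csf2rb2 and Csf3r, and the ligands were Kitl, Flt3l and Csf1. The cells came from 3 wild-type C57BL/6 mice and gave 3 libraries, taken here as 1 per mouse because the titles number the samples only, and no other genotype, treatment or time was part of the series. The sort required KLRG1, CD127, CD90.2 and CD45 on the surface and removed cells with lineage proteins of T cells (CD3, CD5, CD8), natural killer cells (NK1.1), myeloid cells (CD11b, CD11c) and B cells (B220); neither KIT nor another of the receptors was used. The sources used here state no tissue, age, sex or time of day, and the series has no second cell type to compare with.

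These factors act through a pair of receptor classes. KIT (the stem cell factor receptor), FLT3 and the CSF1 receptor are related receptor tyrosine kinases that dimerise on their ligands and signal through SRC family kinases, adaptors and PI3 kinase. The GM-CSF receptor instead joins a ligand-specific alpha chain, Csf2ra, to the common beta chain Csf2rb, which also serves the IL-3 and IL-5 receptors and signals through JAK2 and STAT5. The mouse has a paralogous beta chain, Csf2rb2, used by IL-3. KIT is known from mast cells, haematopoietic progenitors and some innate lymphoid cells, FLT3 from progenitors and dendritic cells, the CSF1 receptor from macrophages and the G-CSF receptor Csf3r from neutrophils.

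The libraries held 17819551 to 26374248 counts. CPM are counts scaled to 1000000 counts per library. A count of 0 was taken to allow up to 3 counts, which correspond to 0.115 to 0.171 CPM in these libraries. All 12 ILC2 markers, among them Gata3, Il1rl1, Il7r and Klrg1, reached 1 CPM in every mouse. Klrg1 and Il7r, the gene of CD127, encode proteins that the sort required, so they are no independent check of it. The libraries are called mouse 1, 2 and 3 after the sample numbers in their titles. Intervals given below are exact 95% Poisson intervals and cover counting error only. In sorted bulk RNA a low level from fewer cells of a type and one from less RNA per cell cannot be told apart.

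Of the 10 genes, 3 were detected, defined as at least 1 CPM in each of the 3 mice: Kit, Flt3l and Csf2ra. This is 30% of the set, beside 31.1% of all gene IDs in the table, so detection of the set was near the background. Flt3 and Csf3r had no counts in any mouse. The other 5 had counts in at least 2 mice but did not reach 1 CPM in all 3. When 1 count in each library was asked for instead, 6 genes were present, with Kitl, Csf1 and Csf2rb2 added. At a minimum of 5 CPM in each library, 2 were detected, Kit and Flt3l, and Csf2ra was not.

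**Figure D1:**
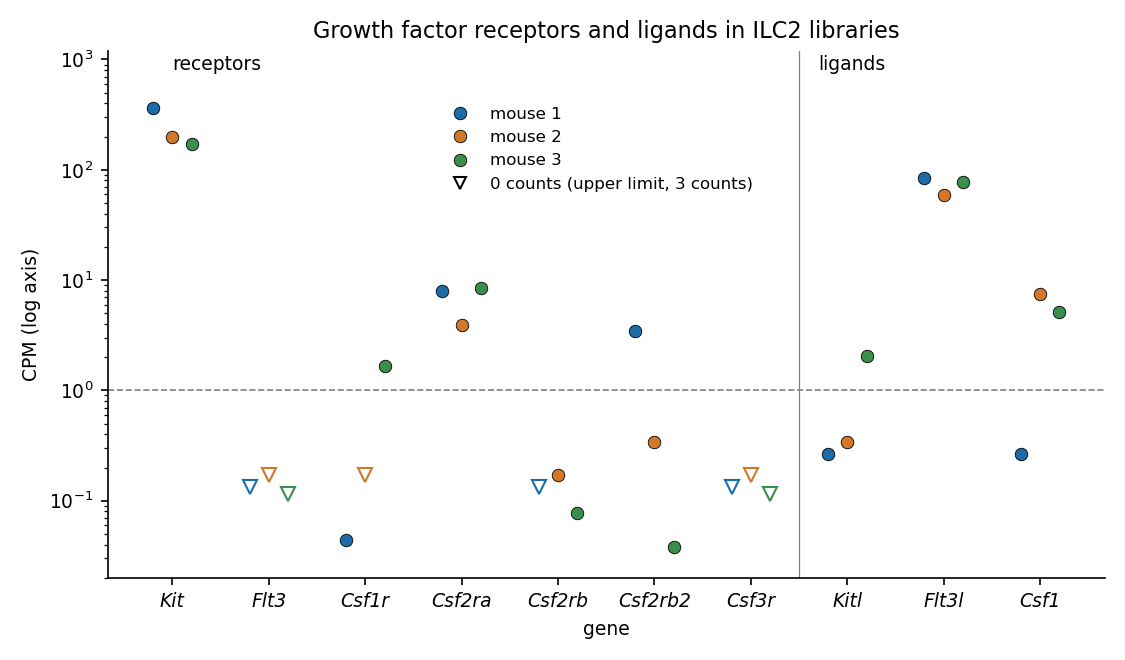
CPM on a log axis for the 7 receptors and 3 ligands, 1 point per mouse; open triangles mark 0 counts, drawn at the level of 3 counts, and the dashed line marks 1 CPM. Kit and Flt3l lie far above the other genes in each mouse, Csf2ra lies between 3.92 and 8.44 CPM, and Csf1, Csf1r, Csf2rb2 and Kitl are each above 1 CPM in some mice only.

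Among the receptors, Kit stood highest. Kit (Entrez 16590; chromosome 5, 75574987 to 75656722, mm10, plus strand) had 362, 199 and 172 CPM in mice 1, 2 and 3, from 8206, 3493 and 4497 counts. Mouse 1 was the high library, 2.10-fold above mouse 3, whereas mice 2 and 3 lay close together. The mean was 244 ± 103 CPM (SD, n = 3). Divided by the summed exon length of 8.91 kb, this gave a level of 27.4 ± 11.5 CPM per kb, above 92.6% of the 24900 genes with a length. No other annotated gene overlapped its exons, and 0 of the 5165 windows of 50 bases in its main coding transcript occurred in transcripts of another gene.

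The counts of Kit sum over its splice forms. GENCODE M21 (GRCm38), the source of the sequences printed here, annotates 2 coding forms that differ by 12 bases, or 4 codons, the well-known pair with and without a short insert in the extracellular part. They are shown from coding base 1513, counted from 1 at the A of the start codon, because a gene-level count cannot say which was present. The insert is in capitals; an equivalent in-frame placement starts 1 codon earlier.
Kit long form: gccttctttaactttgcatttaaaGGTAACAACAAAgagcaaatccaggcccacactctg
Kit short form: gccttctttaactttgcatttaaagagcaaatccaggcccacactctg

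The other receptor kinases were absent or nearly so. Flt3 (chromosome 5, 147330741 to 147400489) had 0 counts in 3 of 3 mice. Csf1r (chromosome 18, 61105572 to 61131139) had 1, 0 and 43 counts, or 0.0441, 0 and 1.65 CPM. Mouse 3 alone stood above the limit of a 0 count, with an interval of 1.19 to 2.22 CPM. GENCODE places exons of Hmgxb3, on the opposite strand, over 15.1% of the Csf1r exon bases. The libraries did not mark strand, so reads of that stretch cannot be told apart. Hmgxb3 had 9.18, 0.682 and 4.95 CPM, and its part in the Csf1r counts was not tested.

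Kit exceeded Flt3 in 3 of 3 mice, by at least 1896-fold, 807-fold and 1039-fold in level per kb in mice 1, 2 and 3 when Flt3 was set to 3 counts per library. Kit also exceeded Csf1r in 3 of 3 mice. In mouse 3, the only library with more than 1 count of Csf1r, the ratio per kb was 67.8 (exact binomial interval 50.2 to 93.8). The exact two-sided sign-flip test gave p = 0.25 for both, the smallest that 3 libraries allow, and 0.281 after Benjamini-Hochberg adjustment over the 9 pairs compared.

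The GM-CSF receptor was represented by its alpha chain. Csf2ra (chromosome 19, 61217191 to 61228461) had 7.94, 3.92 and 8.44 CPM in mice 1, 2 and 3, with a mean of 6.77 ± 2.48 (SD, n = 3). Mouse 2 was low and mice 1 and 3 were alike. The common beta chain Csf2rb (chromosome 15, 78325800 to 78351001) had 0, 3 and 2 counts, which is at or below the limit of a 0 count in each library. Csf2ra exceeded Csf2rb in 3 of 3 mice (exact sign-flip p = 0.25). The ratio per kb was at least 152-fold in mouse 1. It was 58.3 (exact binomial interval 19.1 to 290) in mouse 2 and 279 (76.3 to 2317) in mouse 3.

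The paralogue Csf2rb2 (chromosome 15, 78282507 to 78305721) was uneven, with 78, 6 and 1 counts, or 3.44, 0.341 and 0.0384 CPM. The interval in mouse 1, 2.72 to 4.29 CPM, did not overlap that in mouse 2, 0.125 to 0.743 CPM. Csf2rb2 exceeded Csf2rb in mouse 1, by at least 39.9-fold per kb. In mouse 2 the ratio was 3.07 (0.656 to 19.0) and in mouse 3 it was 0.768 (0.0130 to 14.7), so neither interval excluded equal levels. Over the 3 mice, the pair gave an exact sign-flip p of 0.5.

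The genes of the beta chains are close copies, and their sequences bear on how far these counts can be read. Their coding sequences of 2691 and 2637 bases aligned over 2631 bases, of which 95.2% were identical, with a longest identical run of 242 bases. Of the 50-base windows of the Csf2rb transcript with the longest coding sequence, 18.4% occurred in another gene's transcripts, and of those of Csf2rb2 19.5%, nearly all in the other paralogue. Reads from shared windows cannot be assigned to 1 gene, and the treatment of such reads in the authors' counting is unknown here. The first lines below show the 60-base stretch with the most differences, 13, at coding bases 304 to 363 of Csf2rb and 307 to 366 of Csf2rb2, with differing bases in capitals. The last line shows the first 60-base stretch without a difference, coding bases 245 to 304 of Csf2rb.
Csf2rb: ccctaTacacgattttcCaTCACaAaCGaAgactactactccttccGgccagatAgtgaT
Csf2rb2: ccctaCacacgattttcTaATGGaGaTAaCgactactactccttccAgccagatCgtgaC
Both genes: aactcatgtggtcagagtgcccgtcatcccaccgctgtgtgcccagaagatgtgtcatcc

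The G-CSF receptor gene Csf3r (chromosome 4, 126023441 to 126044975) had 0 counts in each mouse. Csf2ra exceeded it in 3 of 3 mice, by at least 28.9-fold per kb in mouse 2, where Csf2ra was lowest (exact sign-flip p = 0.25). Of the 50-base windows of the Csf3r transcript with the longest coding sequence, 11.5% occurred in another gene's transcripts. Reads from those windows cannot be assigned to 1 gene.

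Of the ligands, Flt3l, which supports progenitors and dendritic cells, was the only one detected in each mouse. Flt3l (chromosome 7, 45131183 to 45136490) had 84.0, 59.1 and 77.6 CPM in mice 1, 2 and 3, with a mean of 73.6 ± 12.9 (SD, n = 3). Mouse 2 was lowest, and the highest library stood 1.42-fold above it. Its level per exon length was 19.0 ± 3.33 CPM per kb. GENCODE places exons of the same-strand gene Gm45713, which runs on into the Rpl13a locus, over 22.1% of the Flt3l exon bases. That gene also holds 81.1% of the 50-base windows of the Flt3l transcript with the longest coding sequence. Reads from shared windows cannot be assigned to 1 of the genes, so the Flt3l values may hold reads of Gm45713 or lack reads of its own. Rpl13a, a ribosomal protein gene, had 281, 314 and 253 CPM, and the part of that locus in the Flt3l counts was not tested. Flt3l exceeded its receptor gene Flt3 in 3 of 3 mice, by at least 552-fold per kb in mouse 2, which had the smallest ratio (exact sign-flip p = 0.25).

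Csf1, the macrophage growth factor that binds the CSF1 receptor, was nearly absent from mouse 1 and present in mice 2 and 3. Csf1 (chromosome 3, 107741048 to 107760469) had 6, 132 and 135 counts, or 0.265, 7.51 and 5.18 CPM. The interval of mouse 1, 0.0971 to 0.576 CPM, lay far below those of mouse 2, 6.28 to 8.90 CPM, and mouse 3, 4.34 to 6.13 CPM. Without mouse 1, Csf1 was the fourth gene of the set to count as detected. Csf1 exceeded Csf1r in 3 of 3 mice (exact sign-flip p = 0.25). The ratio per kb was 6.56 (0.796 to 302) in mouse 1, at least 48.1-fold in mouse 2 and 3.43 (2.42 to 4.96) in mouse 3.

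Kitl, which encodes stem cell factor, was near the limit of detection outside mouse 3. Kitl (chromosome 10, 100015615 to 100100416) had 6, 6 and 53 counts, or 0.265, 0.341 and 2.03 CPM. Kit exceeded Kitl in 3 of 3 mice, by 907-fold per kb in mouse 1 (417 to 2473), 386-fold in mouse 2 (177 to 1053) and 56.3-fold in mouse 3 (43.0 to 75.3). The mean log2 difference was 5.38 ± 0.84 with 0.5 added to the level per kb (SD, n = 3; exact sign-flip p = 0.25). The receptor transcript was thus far above that of its ligand in each library, whereas for FLT3 and the CSF1 receptor the ligand transcript was the higher one.

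**Figure D2:**
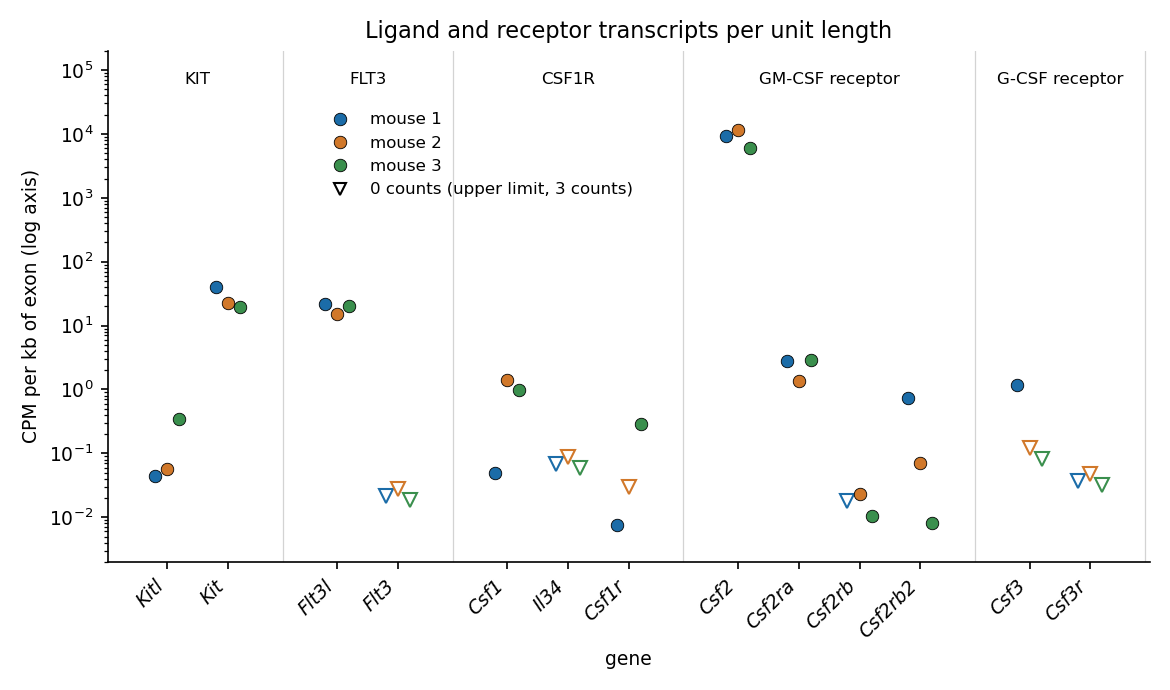
CPM per kb of summed exon length on a log axis for each ligand and its receptor genes, 1 point per mouse; open triangles mark 0 counts, drawn at the level of 3 counts. Kit lies above Kitl, Flt3l above Flt3 and Csf1 above Csf1r in each mouse, and Csf2 lies between 6096 and 11563 CPM per kb while its beta chain Csf2rb is at 0.0234 or below.

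Ordered by mean level per exon length, the genes ran Kit, Flt3l, Csf2ra, Csf1, Csf2rb2, Kitl, Csf1r and Csf2rb, followed by Flt3 and Csf3r at 0 counts. Kit and Flt3l did not differ beyond their spread, with Kit higher in mice 1 and 2 and a mean difference in log2(CPM per kb + 0.5) of 0.46 ± 0.47 (SD, n = 3). Flt3l exceeded Csf2ra in 3 of 3 mice, by 2.81 ± 0.25. From Csf2ra down, the neighbours did not differ beyond their spread, except that Kitl exceeded Csf1r in 3 of 3 mice by 0.12 ± 0.03, where both genes had few counts. The exon lengths used include retained introns, and the top of the order depends on them. With the length of the longest coding transcript, Flt3l stood first at 54.2 ± 9.52 CPM per kb and Kit was next at 46.6 ± 19.6. With coding length alone the values were 88.9 ± 15.6 and 83.2 ± 35.0.

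The cytokines that pair with these receptors were then examined, from a list of 7. Csf2, which encodes GM-CSF, had 7466, 9250 and 4877 CPM, and its level of 8997 ± 2749 CPM per kb exceeded that of 99.98% of genes with a length. Csf2 exceeded Csf2rb in 3 of 3 mice (exact sign-flip p = 0.25). Il5, whose receptor also uses the common beta chain, had 1930 ± 545 CPM on average and was the other of the 2 detected members of the list. Il3 was uneven, with 4.32, 0.398 and 14.0 CPM. Csf3 had 1.68 CPM in mouse 1 and 0 counts in mice 2 and 3. Il34, the alternative ligand of the CSF1 receptor, and the hormones Thpo and Epo had 0 counts in each library. The alpha chains that would complete the IL-3 and IL-5 receptors were low too, with Il3ra at 0.0882, 0 and 1.84 CPM and Il5ra at 0 counts.

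Transcripts of the machinery downstream of KIT were mostly present. Of 21 genes of KIT signalling and its regulation, 14 were detected, beside 31.1% of all gene IDs in the table. The highest 4 by mean CPM were Lyn, a SRC family kinase, at 154 ± 8.70, Pik3r1, the regulatory subunit of PI3 kinase, at 71.3 ± 7.66, the adaptor Grb2 at 45.1 ± 13.1 and the phosphatase Ptpn6 (SHP-1), a negative regulator, at 31.3 ± 9.56. The 7 not detected were Cbl, Sh2b3, Dok1, Plcg1, Spred1, Spred2 and the mast cell and melanocyte factor Mitf. The median level of the 21 genes was 1.36, 1.11 and 0.970 CPM per kb in mice 1, 2 and 3. Over all 24900 genes with a length, detected or not, the medians were 0, 0 and 0.0144. Over the 8326 detected genes with a length they were 5.61, 4.98 and 5.73. The 21 genes include the 7 not detected.

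The common beta chain's signalling genes were almost all present although the chain itself was not. Of 15 genes, 14 were detected, beside 31.1% of all gene IDs. Socs3 was the exception, with 1.24, 0 and 1.53 CPM. Socs2, a STAT5-induced feedback inhibitor, had 486 ± 14.0 CPM, Jak2, the kinase that the beta chain binds, 433 ± 104, Ywhaz, a 14-3-3 protein, 325 ± 50.5 and Jak1 195 ± 18.7. Stat5a and Stat5b were lower, at 3.87 to 6.93 CPM and 8.05 to 18.4 CPM across the mice. The median of the list was 6.98, 6.92 and 8.95 CPM per kb, beside 0, 0 and 0.0144 over all genes with a length. Over detected genes with a length it was 5.61, 4.98 and 5.73. JAK and STAT genes also serve other cytokine receptors of ILC2s.

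**Figure D3:**
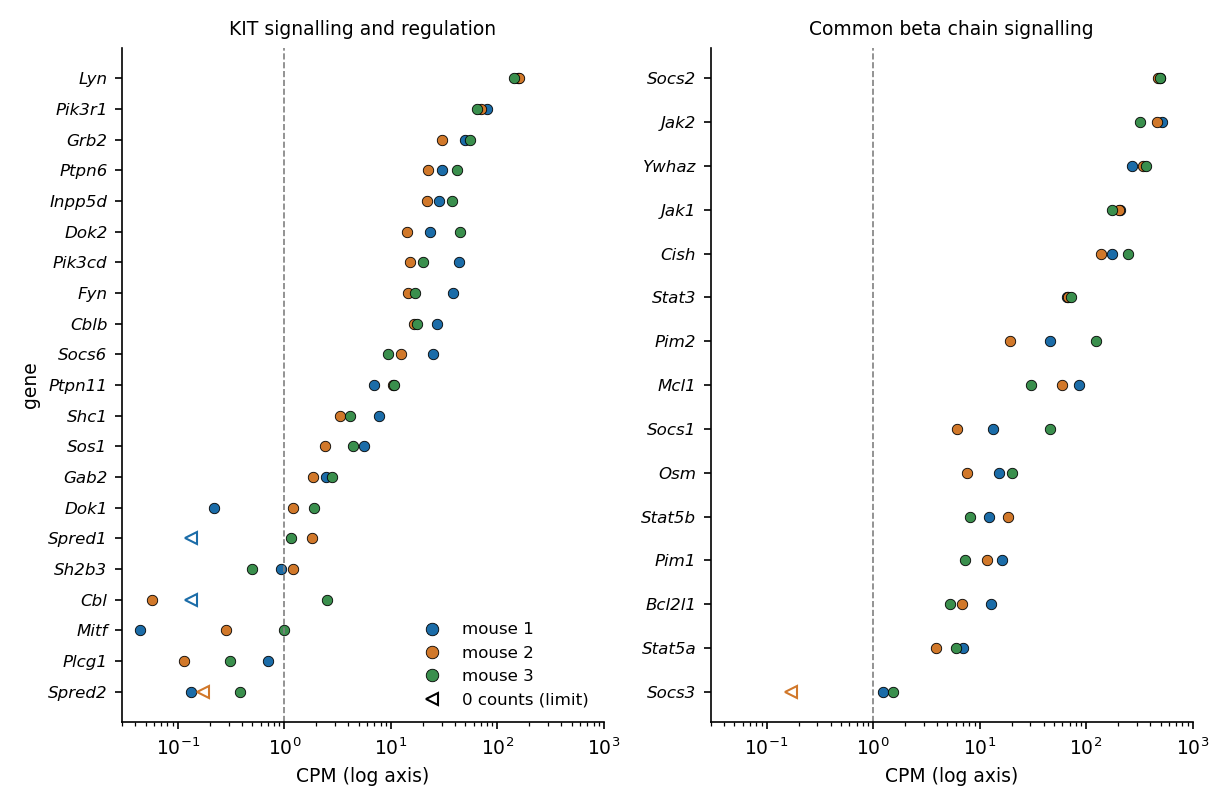
CPM on a log axis for the genes of KIT signalling (left, 21 genes) and common beta chain signalling (right, 15 genes), ordered by mean, 1 point per mouse; open triangles mark 0 counts and the dashed line marks 1 CPM. Lyn leads the left list and Socs2 and Jak2 the right one, and Cbl, Mitf, Plcg1 and Spred2 lie at the bottom of the left list.

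Of 14 genes that act with the CSF1 receptor and FLT3, 9 were detected, beside 31.1% of all gene IDs. On the KIT list were 7 of the 14. The 4 highest were Pik3r1, Grb2, Ptpn6 and Inpp5d (29.2 ± 7.83 CPM), each shared with KIT. The kinase Syk was not detected, with 0.221, 0 and 0 CPM. Cbl and Ptprj were among the others not detected. Of 17 other haematopoietic and growth factor receptors, 3 were detected, a smaller share than the 31.1% over all gene IDs. They were Insr, the insulin receptor, at 12.2 ± 5.63 CPM, Igf1r at 4.28 ± 4.70 and Pdgfrb at 2.70 ± 1.32. Axl had 9.18, 0.682 and 5.02 CPM. Epor, Il5ra, Kdr and Tyro3 had 0 counts in each mouse.

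Markers of other cells that carry these receptors were read beside each result. The share of all gene IDs that were detected, 31.1%, stands beside the count of each marker list. For Kit, 3 of 12 mast cell markers were detected, with a summed level of 61.1, 36.1 and 40.6 CPM in mice 1, 2 and 3. Cpa3 had 18.0, 4.72 and 11.4 CPM and Hdc 38.3, 11.3 and 24.6, and both were highest in mouse 1, as Kit was. Fcer1a, the other one detected, had 4.76, 20.0 and 4.6 CPM and was highest in mouse 2. The proteases Mcpt1, Mcpt2, Mcpt4, Tpsb2 and Tpsab1, the IgE receptor beta chain Ms4a2 and Gata2 had 0 counts throughout. Of 11 ILC3 markers, 7 were detected, with sums of 1170, 1338 and 1573 CPM, lowest in mouse 1, where Kit was highest. Ltb was the highest, at 771 ± 135 CPM, whereas Il23r was at most 0.171 CPM and Ccr6 had no counts. Of 9 progenitor markers, 2 were detected, Hlf and Meis1, with sums of 36.5, 42.0 and 28.2 CPM, and Gata2 and Hoxa9 had 0 counts. The part of other cells in the level of Kit was not tested.

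For Csf1r, 6 of 13 macrophage and monocyte markers were detected, with sums of 57.0, 106 and 72.7 CPM in mice 1, 2 and 3. Ccr2 was the highest, at 29.1 ± 13.0 CPM, followed by Lyz2 at 26.2 ± 9.14, and both were highest in mouse 2, where Csf1r had 0 counts. The complement genes C1qa, C1qb and C1qc and the coreceptor gene Cd14 were also detected, at means of 2.67 to 6.59 CPM. C1qa (2.74, 1.82 and 3.45 CPM) and Cd68 (0.221, 0.967 and 3.49 CPM) were highest in mouse 3, as Csf1r was. Adgre1 had 0 counts, and Itgam and Mertk did not exceed 0.115 CPM. For Csf3r, 0 of 10 neutrophil markers were detected, and all 10 had 0 counts. For Flt3, 4 of 10 dendritic cell markers were detected, with sums of 1976, 1408 and 2469 CPM, nearly all of it Cd74 (1781 ± 498). H2-Ab1 had 117 ± 26.7 CPM, Xcr1 26.1, 31.2 and 37.5 CPM and Zbtb46 37.9, 8.25 and 17.2 CPM. Clec9a and Clec10a had 0 counts. For the IL-5 receptor genes, 1 of 9 eosinophil and basophil markers was detected, Prg2 at 7.43 ± 5.81 CPM, with list sums of 5.96, 16.0 and 9.63. Il5ra itself is on that list, with 0 counts, so the list is not independent of the receptor result.

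For Kitl and Csf1, which stromal cells make, 4 of 10 stromal and endothelial markers were detected, with sums of 47.7, 40.5 and 43.5 CPM in mice 1, 2 and 3. Pecam1, an endothelial adhesion molecule, was the highest at 36.4, 19.7 and 17.7 CPM, with mouse 1 above the others. The endothelial genes Cdh5 and Kdr on the same list had 0 counts in each mouse, and Vwf had 1 count in all. Dcn, a fibroblast proteoglycan, had 6.84, 14.7 and 17.7 CPM and Col3a1 1.54, 3.41 and 2.45. These were lowest in mouse 1, as Csf1 was. Pdgfrb, with 2.51, 1.48 and 4.10 CPM, was lowest in mouse 2. Of 8 epithelial markers, 1 was detected, Epcam at 19.7 ± 13.9 CPM, with list sums of 29.4, 9.78 and 25.8. Of 8 T cell markers, 4 were detected, led by Lck (43.8 ± 24.6 CPM), with sums of 69.9, 42.9 and 88.8. Of 10 B and plasma cell markers, 7 were detected, led by Igkc (18997 ± 14693 CPM), with sums of 12450, 34248 and 62639 CPM. Kitl, Csf1r and the immunoglobulin sum were each highest in mouse 3. The part of these cells in the levels was not tested.

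Whether a gene varied between mice more than others of its abundance was tested on the whole table with edgeR's quasi-dispersions. Of 9175 genes that passed the filter on low counts, 17 were called at an adjusted p below 0.05, or 0.185%, and 404 had an unadjusted p below 0.05. The filter kept 3 of the 10 genes, Kit, Flt3l and Csf2ra, and 0 of them were called. Kit had a quasi-dispersion above the trend, by 2.15 on the log2 scale, with an edgeR adjusted p of 0.976. It was the only one of the 3 with an unadjusted p below 0.05. Without mouse 1 it lay below the trend, at -2.75, so that the spread of Kit rested on that library. Flt3l and Csf2ra lay below the trend, by -0.85 and -0.96 (edgeR adjusted p = 0.997 for both). Limma's variance test and the dispersion outliers of DESeq2 also called 0 of the 3.

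The absence of a call does not show that these genes varied no more than others. Without mouse 1, Csf1 also passed the filter and was not called (edgeR adjusted p = 0.998). The other low genes with counts were tested when all 15092 genes with a count were kept. Of the 22 genes then called, 0 belonged to the set. Csf1 lay above the trend of its abundance by 1.40 on the log2 scale, Csf2rb2 by 1.07 and Csf1r by 0.96, each with an edgeR adjusted p of 0.727. Kitl lay at -0.13 (edgeR adjusted p = 0.839).

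**Figure D4:**
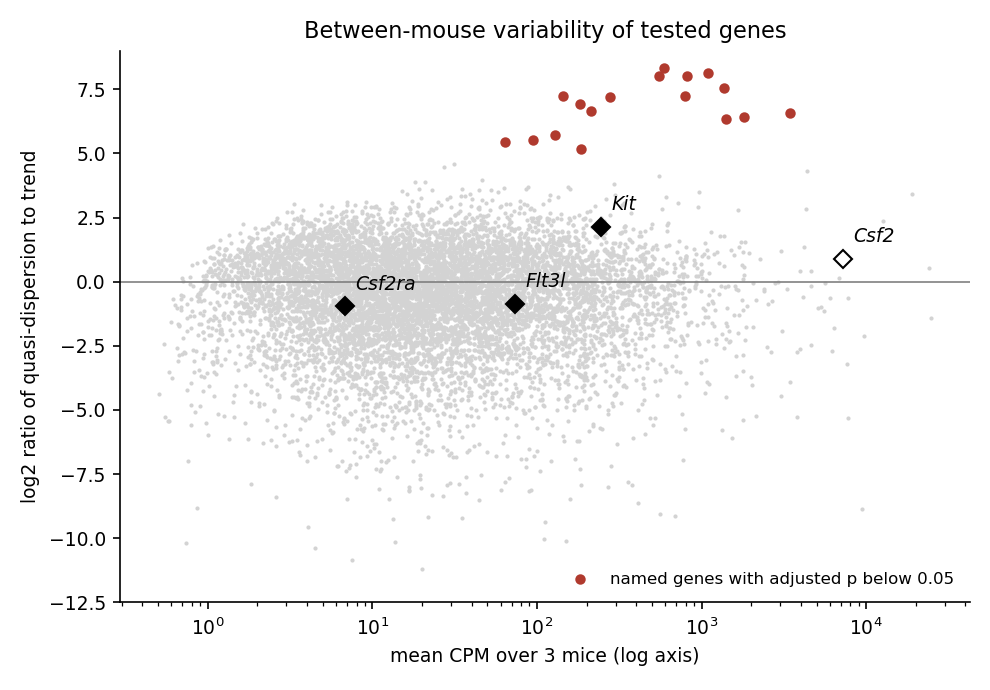
Log2 ratio of each tested gene's quasi-dispersion to the abundance trend (y axis) against mean CPM on a log axis, 1 point per named gene; red points are genes called at an adjusted p below 0.05 and diamonds mark Kit, Flt3l and Csf2ra (filled) and Csf2 (open). Kit lies at 2.15, Flt3l at -0.85 and Csf2ra at -0.96, all inside the cloud of uncalled genes.

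The genes whose pattern over the 3 mice was most like that of Kit were sought among named genes that passed the filter, by the root mean square difference of log2(CPM + 0.5) centred on each gene's mean. The closest 5 were Cpsf2 (0.0051), Rab3gap1 (0.0096), Rny1 (0.016), Acp2 (0.021) and Pdxdc1 (0.022). Such likeness over 3 libraries was not particular to these 5: 77 of 9044 genes, or 0.851%, lay within 0.1.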

How the data were processed

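Each of the 3 libraries held RNA of ILC2s sorted from wild-type C57BL/6 mice. The library kit, per the labels' protocols, was Clontech's SMARTer Ultra Low Input RNA Kit, a full-length cDNA method without strand information. The deposited values are raw read counts, 1 row per Entrez gene ID. CASAVA 1.8.2, STAR 2.3.0 and build mm10 are named, per the submitters' processing notes. The sources used here name no counting program and no treatment of multi-mapped reads. Titles number the samples and the design text names the mice, so separate mice were assumed. Totals were 22112425, 17819551 and 26374248 counts for mice 1, 2 and 3.

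Symbols and 1-based coordinates came from the RefSeq table of GRCm38.p6, the assembly of mm10, in which 25275 of 27179 IDs matched. Unmatched IDs held 0.186% to 0.242% of counts and stayed in the library sizes. Exon lengths, overlaps and transcript sequences came from GENCODE M21, with a length for 24900 IDs. CPM used library sizes scaled by TMM (edgeR 4.0.16, R 4.3.3), with factors of 1.03, 0.987 and 0.989. Differences between genes within a library used log2(CPM per kb + 0.5) and an exact sign-flip test.

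Variability was tested with edgeR's glmQLFit, intercept only, on genes passing filterByExpr (minimum count 10). An upper-tail F test compared each quasi-dispersion with its trend, with Benjamini-Hochberg adjustment over all genes tested. It was tested on simulated data of 9175 genes. No pair of libraries agreed within sampling noise (chi-square per degree of freedom 133 to 226).

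The genes of the set and all lists were chosen with earlier results of these data known. Named were all 10 genes of the set, the 4 highest members and the undetected ones of each pathway list, the highest member of each marker list, and the 5 genes most like Kit; other list members were named after their values were seen. Some list members are not reported here. Alternatives were other size factors (none, or DESeq2 1.42.0), minima, pseudocounts and lengths, limma 3.58.1, and leaving out each mouse.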

Additional observations from a re-analysis of the deposited data

How the results depend on the processing

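No paired analysis was possible because all libraries belong to 1 group. The lengths of the longest coding sequence and of the longest coding transcript were chosen after the data were seen. The length from RefSeq proteins was not run. Each of the 9 gene pairs kept the direction of its mean difference under every alternative, in 90 comparisons. Mean CPM moved by less than 1 SD for each of the 10 genes under other size factors. Single mice set the means of the low genes: Csf1r had 0.0220 CPM and Kitl 0.305 without mouse 3, and Csf2rb2 0.187 without mouse 1. Csf1r had 0.852, Csf2rb 0.0386 and Csf1 2.74 without mouse 2. Without each mouse in turn, 3 to 4 genes of the set were detected and 13 to 31 genes were called more variable. With 1 count in each library as the minimum, 6 of the 10 were present, and with 5 CPM 2 were. By coding length and by the longest coding transcript, Flt3l ranked 1 and Kit 2. By coding length, Kitl ranked 5 and Csf2rb2 6. At a minimum of 5 CPM the lists had 5 detected genes (CSF1R and FLT3 signalling), 2 (macrophages, T cells and stromal cells), 1 (other receptors, mast cells and progenitors) and 0 (eosinophils and basophils, and epithelium). Without mouse 3, 2 eosinophil and basophil markers were detected, and 1 without mouse 1 or mouse 2. The count of more variable genes was 27 at a mean of 5 CPM or more, 0 with a robust prior (394 at an unadjusted p below 0.05), 31 without mouse 1 and 1 without immunoglobulin genes; the cause was not tested. Without each mouse in turn, the log2 ratio of Kit to the trend ran from -2.75 (without mouse 1) to 3.19. No alternative called a gene of the set. Depth limits Flt3 and Csf3r to at most 0.115 to 0.171 CPM.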
